A study of Homo sapiens with 6 samples.

Results

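The TEAD transcription factors and the cofactors that compete for them, 10 genes of the 62443 in the table, were examined in HGC-27 cells, an established human gastric cancer line. They were the 4 TEADs (TEAD1, TEAD2, TEAD3 and TEAD4), the coactivators YAP1 and WWTR1 (the gene of TAZ), and the Vestigial-like proteins VGLL1, VGLL2, VGLL3 and VGLL4, and all 10 were found by symbol. Total RNA was sequenced from 3 control libraries (Con) and 3 libraries of cells given GLUP, and the question was which of these factors the line expresses and whether the balance of coactivators and VGLL competitors differed with the peptide. The labels give Con as having no treatment, and the study's methods name the peptide's stock buffer as the control. The length of exposure is stated differently in separate places of the study and is not given here. GLUP is a synthetic cyclic peptide that carries repeated copies of the core of the TEAD-binding motif of VGLL4, and was made to link TEAD4 molecules. Both groups were unmodified cells of 1 line in the same serum-containing medium, and the labels do not say whether the replicates came from separate cultures, so the p-values measure only the spread between these libraries.

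TEADs bind DNA but have little activating power of their own. YAP1 and TAZ, which are held in the cytoplasm when the Hippo kinase cascade is active, enter the nucleus otherwise and switch on TEAD target genes, many of them genes of growth and adhesion. VGLL proteins bind an overlapping surface of the TEADs through a short conserved stretch called the TONDU (TDU) motif, and VGLL4 is known as a competitor of YAP1 that holds TEAD targets down, in gastric cancer among other tissues.

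The coding sequence of the TDU core is printed for each VGLL because GLUP was built on this motif, and because the number of motifs sets VGLL4 apart from its relatives. Capitals mark the 5 codons of the core, which a search of the translated reading frame found as valine, any residue, any residue, histidine and phenylalanine, and 15 bases flank them on each side. The bases are those of the GRCh37 genome at the canonical coding transcripts of GENCODE release 44, written 5′ to 3′ on the strand of the gene, and no sequence was read from the cells.
VGLL1: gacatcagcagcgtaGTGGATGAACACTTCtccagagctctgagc
VGLL2: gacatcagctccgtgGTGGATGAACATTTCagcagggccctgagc
VGLL3: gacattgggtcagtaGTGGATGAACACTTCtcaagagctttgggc
VGLL4 motif 1: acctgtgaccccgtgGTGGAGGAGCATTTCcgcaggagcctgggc
VGLL4 motif 2: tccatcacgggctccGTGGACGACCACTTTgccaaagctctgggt
The VGLL1 stretch lies in exon 2 of 5 at chrX:135618285-135618329, that of VGLL2 in exon 2 of 4 at chr6:117589543-117589587, and that of VGLL3 in exon 2 of 4 at chr3:87027746-87027790 on the minus strand. Both VGLL4 stretches lie in exon 5 of 5, the last exon, at chr3:11600249-11600293 and chr3:11600165-11600209 on the minus strand. The cores of VGLL1 and VGLL3 were equal in 15 of 15 bases, and that of VGLL2 was equal to either in 14. The 2 cores of VGLL4 were equal to each other in 11 of 15 bases, and over the 45 printed bases in 21. VGLL4 held 2 such motifs, at codons 215 and 243 of 296, and the other VGLLs held 1 each.

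HGC-27 libraries carried 7 of the 10 transcripts above 0 in every library, and all 7 were low. The unit is FPKM, a fragment number corrected for gene length and for the total of the library, so levels can be set side by side between genes. Over the 6 libraries, 3 members had a mean of at least 1 FPKM: WWTR1 at 2.17, TEAD4 at 1.39 and VGLL4 at 1.35. Among 20022 protein-coding genes, WWTR1 lay between the 69.4th and the 81.7th percentile of its library, TEAD4 between the 51.9th and the 80.5th, and VGLL4 between the 61.9th and the 79.4th. The line thus carried all 4 TEADs, both coactivators, with YAP1 at a mean of 0.608 FPKM, and VGLL4 as the 1 VGLL above 0 throughout.

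VGLL2, a VGLL known from skeletal muscle, and VGLL3 were listed at 0 in all 6 libraries, as were 19.9% of the protein-coding genes. VGLL1, best known from trophoblast, was listed at 0.0498 FPKM in Con replicate 3 and at 0 in the other 5. An exact 0 can be a failed estimate in such a table. Taken as no fragment, a floor of 3 fragments would correspond to 0.172 to 0.205 FPKM for VGLL1, to 0.0881 to 0.105 for VGLL2 and to 0.0188 to 0.0224 for VGLL3, depending on the library. The 1 value of VGLL1 above 0 lies under its floor, at about 0.786 fragments on the same scale, and is not told apart from 0.

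The number of reads is not given with FPKM, and these floors rest on an approximation. Among low values of single-transcript genes, each library had a pile-up at a common product of FPKM and length, with 40 to 66 values within 1.5% of it against a median of 10 to 16 at other products, and this product was taken as the worth of 1 fragment. On that scale TEAD4 rested on about 4.97 fragments in Con replicate 2 and on up to 57.8 elsewhere, TEAD3 on 6.57 to 22.3, VGLL4 on 35.5 to 108 and WWTR1 on 64.0 to 205. A smaller pile-up of 21 to 36 values stood at a lower product in Con replicates 1 and 3 and GLUP replicates 1 and 2. If that is the worth of 1 fragment, the true numbers are larger. Con replicate 2 had 13 values at the lower product and GLUP replicate 3 had 15. Those were no more than their medians of 16 and 15 at other products. Counting error alone is therefore wide for TEAD3 and for TEAD4 in Con replicate 2.

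The libraries were not equally alike. The mean correlation with the other libraries was 0.898 for Con replicate 2 and 0.954 to 0.964 for the rest. Deviations of genes from their mean followed GC content, with a Spearman coefficient of -0.34 in Con replicate 1 and -0.59 in Con replicate 2 but between 0.34 and 0.54 in Con replicate 3 and the GLUP libraries. Con replicate 3 thus sided with the GLUP libraries in this property, and values with this trend removed are given beside the members where they differ. The line was checked against markers. Of the mesenchymal list, VIM was at 222 to 387 FPKM, ZEB1 at 2.88 to 19.2 and FN1 at 0.64 to 3.25, while CDH2 did not exceed 0.0508. Of the epithelial list, the keratins KRT8, KRT18 and KRT19 were at 1.05 to 2.30, 0.917 to 2.51 and 0.764 to 1.34. EPCAM, CDH1 and CLDN4 did not exceed 0.124, 0.0799 and 0.164. Of the gastric lineage markers, 4 of 6 (TFF1, TFF2, MUC6 and GKN1) were at 0 throughout. The 6 epithelial markers summed to 3.07 to 3.83 FPKM in Con and to 5.29 to 6.16 in GLUP, the 4 mesenchymal markers to 344 to 410 in Con and 229 to 340 in GLUP, and the 3 fibroblast markers to 25.4 to 45.2 and 19.3 to 27.4. Members of a list did not all move with its sum. The epithelial sum rose with the keratins, while CDH1 was at 0.0148 to 0.0799 in Con and at 0 in all GLUP libraries. VIM made up most of the mesenchymal sum and DCN most of the fibroblast sum. COL1A1, of the fibroblast list, was at 2.97, 3.64 and 3.84 in Con and at 6.91, 4.42 and 2.86 in GLUP. Of the immune markers, CD3E was at 0 throughout and PTPRC did not exceed 0.0394, and the 2 endothelial markers found did not exceed 0.0045. The part of these differences in the results below was not tested, and in bulk RNA fewer cells of a type and less RNA per cell cannot be told apart.

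**Figure D1:**
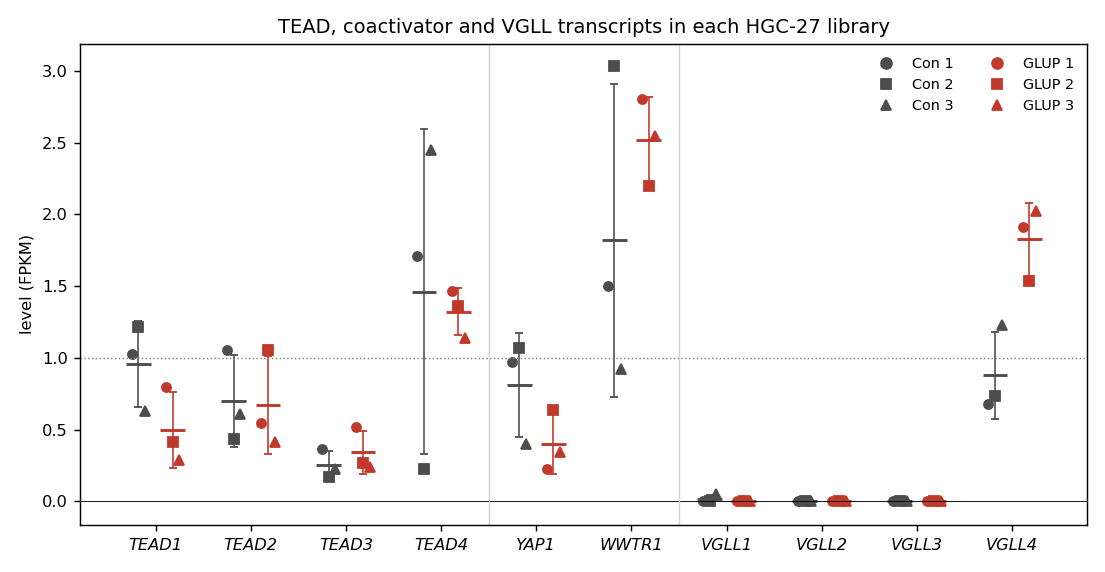
Levels (FPKM) of the 10 members in each library, with Con in grey and GLUP in red, 1 symbol per replicate number, horizontal bars for the mean and error bars for the SD (n = 3 per group). The dotted line is 1 FPKM. VGLL4 is the only member with all GLUP values above all Con values, while VGLL1, VGLL2 and VGLL3 lie at or near 0.

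Among the TEADs, TEAD4 was the highest in 5 of 6 libraries and TEAD3 the lowest in 6 of 6. TEAD4 (chr12:3068496-3149842, plus strand), the target of GLUP, was at 1.71, 0.227 and 2.45 FPKM in Con replicates 1, 2 and 3, and at 1.46, 1.36 and 1.14 in GLUP. The 3 GLUP libraries lay close together between the extremes of Con, which differed among themselves by more than the groups did. The means were 1.46 ± 1.13 in Con and 1.32 ± 0.167 in GLUP (SD, n = 3), and the log2 fold change was 0.04 (SE 0.352, limma adjusted p = 0.945), with a 95% interval of -0.74 to 0.83. The mean FPKM was thus slightly lower in GLUP while the mean on the log2 scale was slightly higher, and neither difference exceeded the spread. The log2 fold change was -0.40 without Con replicate 2 (limma adjusted p = 0.369) and -0.34 once the GC and length trend was removed (limma adjusted p = 0.321), so its direction was not stable. TEAD4 transcripts share windows of 50 identical bases with TEAD3, and reads there could be assigned to either. The windows numbered 14 with overlapping windows and both strands counted, so they need not be separate stretches.

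TEAD1 (chr11:12695968-12966284, plus strand), a broadly expressed family member, was at 1.03, 1.22 and 0.630 FPKM in Con and at 0.796, 0.415 and 0.286 in GLUP. It was lower on average in GLUP, but the first GLUP library lay above Con replicate 3. The means were 0.959 ± 0.300 and 0.499 ± 0.265 (SD, n = 3), and the log2 fold change was -0.39 (SE 0.193, limma adjusted p = 0.595). With the trend in GC content and length removed from each library it was -0.13.

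TEAD2 (chr19:49843852-49865714, minus strand), known from embryonic tissue, was at 1.06, 0.431 and 0.609 FPKM in Con and at 0.544, 1.06 and 0.411 in GLUP. One library of each group stood at the same high level, and the groups overlapped fully. The log2 fold change was -0.03 (SE 0.213, limma adjusted p = 0.958), its sign turned under other scalings, and it was -0.22 once the GC and length trend was removed.

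TEAD3 (chr6:35441374-35464856, minus strand), known from placenta, was at 0.362, 0.172 and 0.227 FPKM in Con and at 0.515, 0.270 and 0.239 in GLUP. The log2 fold change was 0.09 (SE 0.136, limma adjusted p = 0.721), and -0.06 once the GC and length trend was removed. None of the TEADs was separated between the groups.

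WWTR1 (chr3:149235022-149454501, minus strand) was the highest of the 10 genes in 4 of 6 libraries and above YAP1 in 6 of 6. It was at 1.498, 3.03 and 0.921 FPKM in Con and at 2.80, 2.20 and 2.54 in GLUP. All GLUP libraries were above Con replicates 1 and 3, and Con replicate 2 was above all of them. The means were 1.82 ± 1.09 and 2.52 ± 0.304 (SD, n = 3), and the log2 fold change was 0.38 (SE 0.300, limma adjusted p = 0.423), with a 95% interval of -0.28 to 1.05. It was 0.68 without Con replicate 2 (limma adjusted p = 0.197), 0.14 without Con replicate 3 (limma adjusted p = 0.710) and 0.85 once the GC and length trend was removed (limma adjusted p = 0.176), after which all 3 GLUP values, 2.85 to 3.37 FPKM, were above those of Con, 1.05 to 1.90.

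YAP1 (chr11:101981178-102104155, plus strand), the other coactivator, was at 0.971, 1.07 and 0.398 FPKM in Con and at 0.228, 0.638 and 0.341 in GLUP. Con replicates 1 and 2 were above every GLUP library, and Con replicate 3 lay among them. The means were 0.813 ± 0.363 and 0.402 ± 0.212 (SD, n = 3), and the log2 fold change was -0.36 (SE 0.206, limma adjusted p = 0.622). Once the GC and length trend was removed this shrank to -0.08.

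VGLL4 (chr3:11597543-11812824, minus strand) made up 100% of the VGLL total in 5 libraries and 96.1% in Con replicate 3. It was at 0.676, 0.733 and 1.23 FPKM in Con and at 1.91, 1.54 and 2.03 in GLUP. All 3 GLUP libraries were above all 3 Con libraries, with Con replicate 3 the nearest to them. The means were 0.879 ± 0.303 and 1.82 ± 0.256 (SD, n = 3), a ratio of 2.08, and the log2 fold change was 0.60 (SE 0.223, limma adjusted p = 0.198), with a 95% interval of 0.10 to 1.09. The exact permutation test, two-sided, gave p = 0.1, the smallest that 3 against 3 libraries allow. With the GC and length trend removed, the log2 fold change of VGLL4 was 0.77 (limma adjusted p = 0.191). Its values were then 1.68 to 2.42 FPKM in GLUP and 0.544 to 1.25 in Con.

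Of the genes tested, 7.55% had all GLUP values above all Con values, so 1 such member among the 3 tested is to be read against that share. Without Con replicate 3 the log2 fold change of VGLL4 was 0.73 and passed the test (limma adjusted p = 0.047), and in that fit 18.5% of all genes passed. The Con libraries left there had GC coefficients of -0.34 and -0.59, and the GLUP libraries had 0.34 to 0.54. Group and GC trend cannot be told apart in that fit. VGLL4 reached the minimum of 1 FPKM only through GLUP, since its Con mean was 0.879. In the fit without a filter its limma adjusted p was 0.589 with all 6 libraries. Without Con replicate 3, 0 of 31444 genes passed in that unfiltered fit, so the call of VGLL4 depends on the filter. Over 16 alternatives the log2 fold change of VGLL4 lay between 0.52 and 1.01 and its limma adjusted p between 0.047 and 0.589. Of the annotated exon bases of VGLL4, 22.2% are also exon of ATG7, an autophagy gene on the opposite strand, and whether the counting used strand is not stated. ATG7 was at 2.55, 0.991 and 2.38 FPKM in Con and 1.55, 1.01 and 1.53 in GLUP, a log2 fold change of -0.29 (SE 0.279, limma adjusted p = 0.509). The part of ATG7 reads in the VGLL4 values was not tested.

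Across the 7406 genes whose mean reached 1 FPKM, 0% passed an adjusted p of 0.05, and 0 of the 3 members in that set passed. The 4 lower TEAD and YAP1 transcripts took their values from the same limma fit to all 31444 genes above 0 in any library, where again 0% passed, and 0 of these 4. At an unadjusted p under 0.05, 1606 genes and 2541 genes passed. The log2 fold changes of all tested genes had a median of -0.23, which moved to -0.01 with scaling by the trimmed mean of log ratios. Relative to this median, VGLL4 stood at 0.83, WWTR1 at 0.62 and TEAD4 at 0.27. In the fit without a filter the median was -0.01, and relative to it TEAD1 and YAP1 stood at -0.38 and -0.35.

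**Figure D2:**
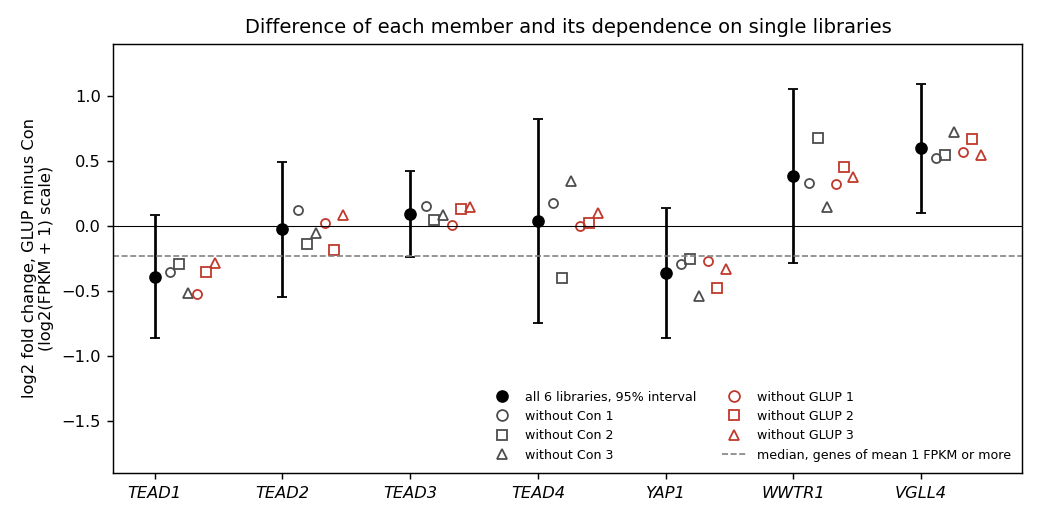
Log2 fold change (GLUP minus Con, on the log2(FPKM + 1) scale) of the 7 members above 0 in every library, with all 6 libraries and its 95% interval (filled) and with each library left out in turn (open). VGLL4, whose groups do not overlap, lies between 0.52 and 0.73 with a library left out, while TEAD4 lies between -0.40 and 0.35 depending on the Con library left out.

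The order of levels differed between the groups in how clear it was. In Con the means ran from WWTR1 over TEAD4, TEAD1, VGLL4, YAP1 and TEAD2 to TEAD3, and the only neighbours whose ranges did not overlap were TEAD2 and TEAD3. In GLUP they ran from WWTR1 over VGLL4, TEAD4, TEAD2, TEAD1 and YAP1 to TEAD3, and the first 4 were apart from each other in range: WWTR1 at no less than 2.20 FPKM, VGLL4 between 1.54 and 2.03, TEAD4 between 1.14 and 1.46, and TEAD2 at no more than 1.06. WWTR1, VGLL4 and TEAD4 came in this order in 3 of 3 GLUP libraries. VGLL4 ranked between the second and the sixth place over all 6 libraries, and TEAD4 between the first and the sixth.

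**Figure D3:**
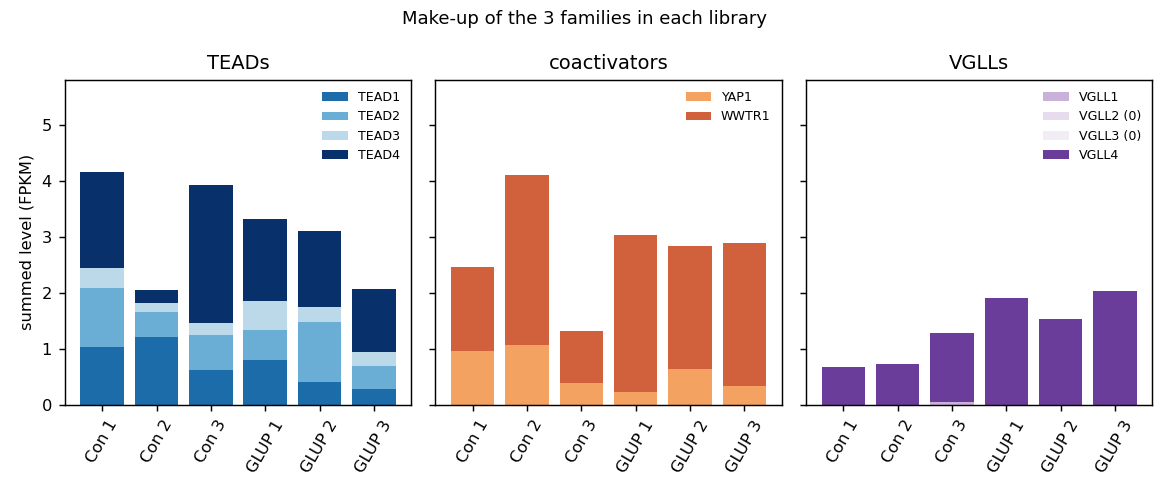
Summed level (FPKM) of the TEADs, the coactivators and the VGLLs in each library, with each bar divided by gene. The TEAD4 segment is small in Con replicate 2, the coactivator sum ranges from 1.32 to 4.11 in Con but from 2.84 to 3.03 in GLUP, and the VGLL bars consist of VGLL4 almost alone.

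Summed by family, TEADs came to 4.16, 2.05 and 3.91 FPKM in Con and 3.32, 3.11 and 2.07 in GLUP. TEAD4 held 41.1%, 11.1% and 62.5% of this in Con and 44.1%, 43.9% and 54.9% in GLUP, a mean of 38.2 ± 25.9% against 47.6 ± 6.27% (SD, n = 3). The difference of 9.41 percentage points was smaller than the spread in Con, and without Con replicate 2 it turned to -4.18. It was 2.97 once the GC and length trend was removed. The share of TEAD1 was 24.8%, 59.5% and 16.1% in Con, the reverse of TEAD4: in Con replicate 2 the members of low GC content (TEAD1, YAP1 and WWTR1, 42.2% to 43.5%) were at their highest among Con and those of high GC content (TEAD2, TEAD3 and TEAD4, 58.1% to 60.4%) at their lowest. The part of GC content in these values was not tested gene by gene.

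The coactivators summed to 2.47, 4.10 and 1.32 FPKM in Con and to 3.03, 2.84 and 2.88 in GLUP. Divided by the VGLL sum, they gave ratios of 3.65, 5.60 and 1.03 in Con and 1.58, 1.84 and 1.42 in GLUP. In every library the coactivator transcripts thus exceeded those of the VGLLs, but Con replicate 3 was below every GLUP library, and the groups overlapped. On the log2 scale the ratio was 1.47 ± 1.27 in Con and 0.69 ± 0.19 in GLUP (SD, n = 3), a difference of -0.78 that was smaller than the spread in Con. It was -1.49 without Con replicate 3, -0.27 without Con replicate 2 and -0.38 once the GC and length trend was removed. With YAP1 as the only coactivator it was -2.10, and with WWTR1, the more abundant of the pair, -0.44.

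Other pairs were compared after their values were seen and carry no test. The VGLL sum over the TEAD sum was 0.163, 0.358 and 0.326 in Con and 0.576, 0.495 and 0.976 in GLUP, with no overlap. The VGLL sum is VGLL4 almost alone and the TEAD sums overlapped, so this ratio is not separate from the result for VGLL4. WWTR1 made up 60.7%, 73.9% and 69.8% of the coactivator FPKM in Con and 92.5%, 77.5% and 88.2% in GLUP, again with no overlap. VGLL4 over TEAD4, the ratio of the competitor to the factor that GLUP binds, was 0.396, 3.23 and 0.501 in Con and 1.31, 1.13 and 1.78 in GLUP, so that Con replicate 2 was above every GLUP library and the other Con libraries were below.

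**Figure D4:**
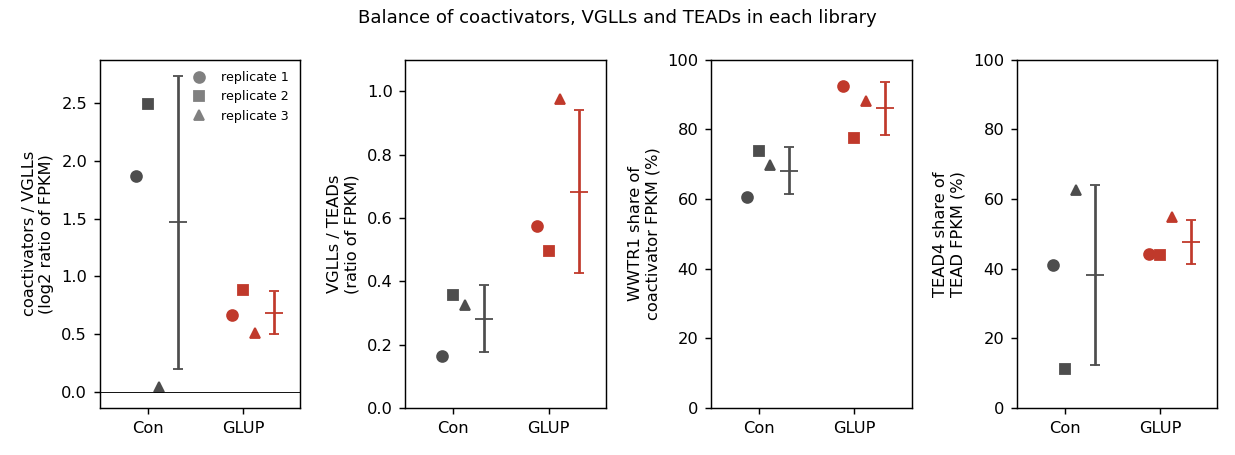
Ratios and shares in each library, with 1 symbol per replicate and the mean and SD beside them (n = 3 per group). From left to right are the log2 ratio of coactivators to VGLLs, the ratio of VGLLs to TEADs, the share of WWTR1 in the coactivators and the share of TEAD4 in the TEADs. The second and the third panel have no overlap between groups, and the first and the fourth do.

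The genes around the family were described from lists of 18 Hippo kinases and regulators, 22 TEAD targets and 8 other reported TEAD partners, 45 different genes with 3 in both of the first lists. Of the Hippo list, 7 were tested and 0 passed the adjusted threshold, where 0% of all genes did. Their median log2 fold change was -0.41 against -0.23 for all genes, with 6 lower and 1 higher. STK3 and SAV1 had GLUP means of 0.912 and 0.701 FPKM and reached the minimum only through Con. The counts and the median of this list are therefore not independent of the filter. All GLUP values lay below all Con values in 3 of these 7, as they did in 22.7% of all genes tested. STK3, a core kinase also known as MST2, was at 4.01, 2.10 and 1.16 FPKM in Con and at 0.949, 0.778 and 1.01 in GLUP (log2 fold change -0.76, SE 0.306, limma adjusted p = 0.204). MOB1A, the scaffold that activates the LATS kinases, was at 21.2, 24.7 and 13.1 in Con and at 11.9, 11.3 and 9.55 in GLUP (log2 fold change -0.76, SE 0.317, limma adjusted p = 0.212). In both genes Con replicate 3 stood nearest to GLUP.

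Of the TEAD targets, 10 were tested, 0 passed, and 10 were lower in GLUP, with a median of -0.79. Most of the 10, namely CCN1, ANKRD1, ASAP1, F3, CRIM1 and CCDC80, had a GLUP mean under 1 FPKM and reached the minimum only through Con. The counts and the median of the 10, here and below, are therefore not independent of the filter. ANKRD1 was at 16.1 FPKM in Con replicate 1 and at 0 to 0.191 elsewhere. Of the targets under the minimum, FJX1 and NUAK2 were higher in GLUP and the rest lower. Their log2 fold changes in the fit without a filter were 0.09 for FJX1 and 0.003 for NUAK2. AXL, a receptor tyrosine kinase, was at 19.2, 21.9 and 8.80 FPKM in Con and at 6.35, 5.74 and 3.29 in GLUP (log2 fold change -1.47, SE 0.386, limma adjusted p = 0.194). F3, tissue factor, was at 2.34, 4.27 and 1.45 in Con and at 0.431, 0.472 and 0.239 in GLUP (log2 fold change -1.35, SE 0.289, limma adjusted p = 0.194). All GLUP values lay below all Con values in 4 of the 10, AXL and F3 among them, beside the 22.7% of all genes tested. Without Con replicate 3, 6 of the 10 passed, all lower, in the fit in which 18.5% of all genes passed, 1204 of those 1367 lower as well. Group and GC trend cannot be told apart in that fit, as described for VGLL4.

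Of the other partners, 4 were tested and 0 passed, with a median of -0.31. RFXANK, a subunit of the factor that drives MHC class II genes, was at 289, 44.9 and 306 FPKM in Con and at 289, 283 and 380 in GLUP (log2 fold change 0.98, SE 0.635, limma adjusted p = 0.345), with Con replicate 2 alone far below the rest, as it was in TEAD4. CTCF, the insulator protein, was at 2.82, 4.10 and 1.46 in Con and at 1.69, 1.49 and 0.979 in GLUP (log2 fold change -0.62, SE 0.303, limma adjusted p = 0.254). FAM181A and FAM181B, other TEAD-binding proteins, were listed at 0 in all 6 libraries.

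**Figure D5:**
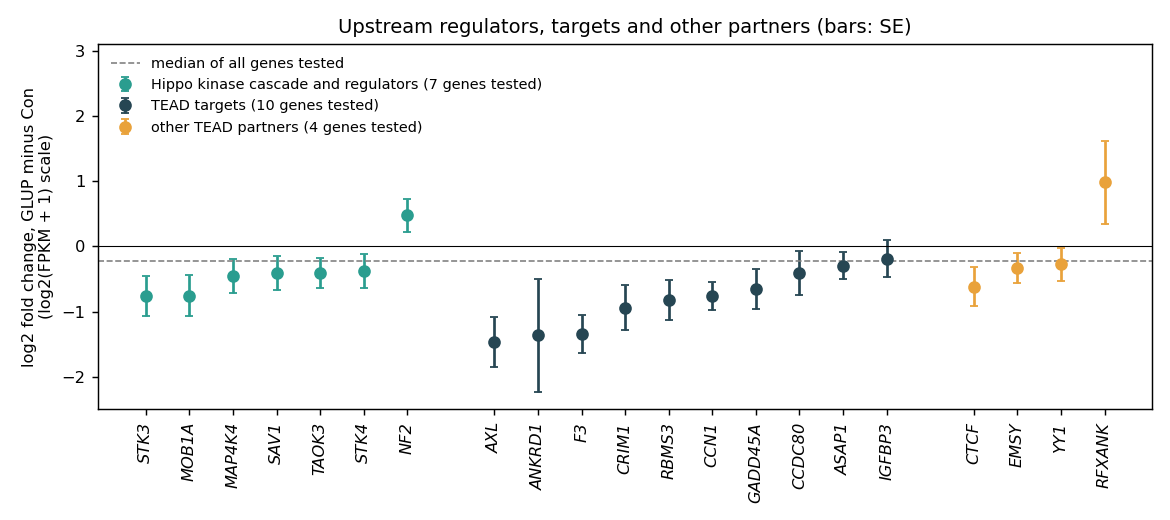
Log2 fold change (GLUP minus Con, on the log2(FPKM + 1) scale) of the tested genes of 3 lists, with the SE as bars and the median of all tested genes as a dashed line. All 10 tested TEAD targets lie below 0, as do 6 of 7 Hippo genes and 3 of 4 other partners, and none passed the adjusted threshold. Most of these targets and some of these Hippo genes reached the minimum level for testing only through Con.

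The genes whose pattern over the 6 libraries was most like that of each member whose mean reached 1 FPKM were found by Pearson correlation on the log2(FPKM + 1) scale, as a description over 6 libraries that share depth and base composition. TEAD4 was closest to NDUFC2-KCTD14 (r = 0.995), TMEM134 (0.993) and CAPNS1 (0.991), genes that were lowest in Con replicate 2, as with TMEM134 at 0.927 FPKM there and 2.66 to 4.96 elsewhere. WWTR1 was closest to the chemokine gene CCL2 (r = 0.983), at 240 FPKM in Con replicate 3 and 370 in Con replicate 2, to the pseudogene RPL21P80 (0.981) and to PCMTD1-DT (0.962). VGLL4 was closest to RPL13A (r = 0.981), a ribosomal protein gene at 702 to 1052 FPKM in Con and 1120 to 1496 in GLUP, to PAM16 (0.980) and to BPHL (0.978). The 3 members thus followed 3 different patterns across the libraries.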

How the data were processed

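The authors deposited 1 table of FPKM values per gene (6 libraries, 62492 identifiers, of which 49 pseudoautosomal copies were summed with their counterparts). The submitters' processing notes name HISAT2, Cufflinks, RSEM and GRCh38.p10, without versions or roles, whereas the identifiers are those of a GENCODE set lifted to GRCh37. Positions, length and GC content are from GENCODE release 44 lifted to GRCh37. FPKM carries no counts, so log2(FPKM + 1) was fitted with limma 3.58.1 in R 4.3.3 (lmFit, eBayes with trend), for the 7406 genes whose mean reached 1 FPKM, with Benjamini-Hochberg adjustment over all of them. Members under that minimum were read from an unfiltered fit of the same kind. Fold changes on this scale understate those of low genes. Samples were grouped by title. The fit was tested on simulated data. Ratios and shares used FPKM and have no test. Named genes were the 10 members, the 3 most correlated genes of each member whose mean reached 1 FPKM, and the listed pathway genes that passed or, failing that, the 2 with the smallest p per list. Marker genes, ATG7, SAV1, CCN1, ANKRD1, ASAP1, CRIM1, CCDC80, FJX1 and NUAK2 were named in addition, all but the marker genes after their values were seen. One immune marker is not reported here. Alternatives were 4 other scalings (a common total, the trimmed mean of log ratios, the upper quartile and quantiles), a pseudocount of 0.1, no filter and a minimum of 0.1 FPKM, eBayes without trend, the replicate number as a block, subtraction per library of a loess curve (span 0.5) over GC content and length, and leaving out each library. No pair of libraries had an equal value above 0 in a tested gene. Members and lists were chosen with earlier results of these data known. Python 3.11.15 with pandas 2.3.3, numpy 2.4.6, scipy 1.17.1 and matplotlib 3.10.9 was used for tables and figures.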

Additional observations from a re-analysis of the deposited data

How the results depend on the processing

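No member passed the test with all 6 libraries under any alternative, and TEAD1, YAP1, WWTR1 and VGLL4 kept their direction in 16 of 16 alternatives. Dropping or lowering the filter, eBayes without trend and the replicate block leave the fold change itself unchanged. The direction under those alternatives was therefore fixed in advance. The count of genes past the adjusted threshold, 0 with all libraries, was 1 for eBayes without trend, 1 with the replicate number as a block, 1 once the GC and length trend was removed, and between 0 and 1367 with a library left out (1367 without Con replicate 3 and 3 without Con replicate 2). For the members it was between 0 and 1, the 1 being VGLL4 without Con replicate 3 in the filtered fit. Libraries of the same replicate number had correlations of deviations of 0.13, -0.01 and -0.17. These show no clear pairing but cannot exclude a shared culture, since the deviations also carry the GC trend. The replicate block changed no call of a member (VGLL4 0.60, limma adjusted p = 0.226). Signs turned for TEAD2 (log2 fold change 0.094 by the trimmed mean of log ratios, 0.0931 by the upper quartile, 0.0704 by quantiles, and -0.19 to 0.12 with a library left out, positive without Con replicate 1, GLUP replicate 1 or GLUP replicate 3), for TEAD3 (-0.0591 once the GC and length trend was removed) and for TEAD4 (-0.34 with that trend removed, and -0.40 to 0.35 with a library left out, negative without Con replicate 2 or GLUP replicate 1). The cause was not tested. With a pseudocount of 0.1 the log2 fold changes of TEAD1, YAP1 and VGLL4 were -0.87, -0.85 and 1.01. The log2 ratio of coactivators to VGLLs was -2.10 with YAP1 alone as the coactivator, -0.44 with WWTR1 alone, and between -1.49 and -0.27 with a library left out. The share of TEAD4 differed by -4.18 to 21.6 percentage points with a library left out, and that of VGLL4 by 0 to 1.95. VGLL1, VGLL2 and VGLL3 have no value with the trend removed, since each is at 0 in at least 5 libraries.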
